A study of Mus musculus with 12 samples.

Results

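Cytochrome P450 enzymes of families 1 to 3 were followed in the livers of 12 mice. A gene was taken as a member when its symbol in the platform annotation began with Cyp1, Cyp2 or Cyp3, then a subfamily letter and a number, on a probe set that names 1 gene. This gave 43 members in 14 subfamilies, out of 18193 genes with such a probe set. The mice were 9-week-old C57BL/6J males. Conditional knockout mice (CKO) carried a Keap1 flox allele over a null allele with an Albumin-Cre transgene, which acts in hepatocytes. The controls labelled wild type (WT) carried the same Albumin-Cre transgene with 1 flox and 1 intact Keap1 allele, so Cre could act on the flox allele in both genotypes. The null allele of the CKO mice was not limited to hepatocytes. Mice of each genotype were gavaged once, with vehicle (Cremophor-EL and DMSO in PBS) or with CDDO-Im, an oleanane triterpenoid used to switch on Nrf2, at 30 umol/kg. The liver was collected after 6 h. There were 3 mice in each of the 4 groups, with 1 array per mouse. The purpose stated for the series was to set genetic activation of Nrf2 signalling beside its activation by a drug.

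P450 enzymes of these families are heme proteins, most of them bound to the endoplasmic reticulum, that oxidise drugs, pollutants, steroids and fatty acids. The liver is their main site, and many are switched on by ligand-sensing receptors. The Ah receptor drives the Cyp1 genes, while the receptors CAR and PXR drive Cyp2b, Cyp2c and Cyp3a genes. Several mouse members also differ between males and females. Keap1 holds the transcription factor Nrf2 at a low level, so loss of Keap1, or a drug that modifies Keap1, lets Nrf2 act on its target genes. Many Nrf2 targets are enzymes that conjugate or reduce the products of P450 oxidation.

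The signals are log2 values, so a difference of 1 is a doubling, and the lowest value on the arrays, 2.22, is a floor at which a probe set shows no signal of its own. Between different probe sets the levels cannot be compared. The 12 arrays had medians of 2.32 to 2.34 and maxima of 16.69 to 17.01, and no 2 arrays were identical. The lowest correlation between arrays of a group was 0.996. One Keap1 probe set read 7.92 to 8.89 in the 6 WT livers and 2.74 to 3.31 in the 6 CKO livers. A second Keap1 probe set read 6.58 to 8.08 in WT and 6.15 to 6.51 in CKO livers, and where either lies with respect to the floxed exons is not in the files. Nqo1, a quinone reductase and Nrf2 target, rose by 4.86 ± 0.35 (log2, SE) in CKO against WT livers under vehicle (limma, adjusted p = 4.55e-05). It rose by 3.45 ± 0.35 after CDDO-Im in WT livers (adjusted p = 9.34e-04). All 8 hepatocyte markers with a probe set were above 5, with mean levels of 15.30 to 15.44 over the 12 livers. All 4 kidney tubule markers and both adipose markers stayed below 5 on every array. Of 2 pancreatic acinar markers, 1 stayed below 5, while Cela1 passed 5, and their mean level was 5.46 to 5.90. The tissue is bulk liver, so fewer cells of a type and less RNA per cell cannot be told apart. The labels name no batch, and the p-values measure the spread between these 12 livers.

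Of the 43 members, 28 were above a log2 signal of 5 on at least 3 arrays and were tested, 14 had no array above 5, and 1 lay in between. Among the 28, 26 were above 5 on all 12 arrays. Cyp2b10 was above 5 on 11 arrays and Cyp2b9 on 3, the latter in CKO livers alone. The tested members were Cyp1a2 of the Cyp1a subfamily, Cyp2a12, 2 of 4 Cyp2b genes, 8 of 11 Cyp2c genes, 6 of 8 Cyp2d genes, Cyp2e1, Cyp2f2, Cyp2g1, 2 of 5 Cyp2j genes, Cyp2r1, Cyp2u1 and 3 of 5 Cyp3a genes. The 14 members at or near the floor were Cyp1a1, Cyp1b1, Cyp2b13, Cyp2b19, Cyp2c39, Cyp2c55, Cyp2c65, Cyp2d12, Cyp2d34, Cyp2j11, Cyp2j13, Cyp2s1, Cyp3a16 and Cyp3a44. Of these, 5 lay within 0.001 of the lowest value on all 12 arrays. Cyp1a1 ranged from 3.69 to 4.18, Cyp2d12 from 4.14 to 4.42, Cyp2s1 stood at 3.07 throughout, and Cyp3a44 ranged from 2.74 to 3.09. Cyp2c39 ranged from 2.24 to 4.18, Cyp2c55 from 2.39 to 3.63, Cyp2b13 from 2.22 to 3.37 and Cyp2j13 from 2.22 to 2.45. None of them was tested. Cyp2c55 was at 3.63, 2.59 and 3.49 in the WT vehicle livers and at 2.39 to 2.91 in the other 9, with WT vehicle replicate 2 inside their range. Cyp2j9 passed 5 in 1 liver only and was not tested. It read 4.78, 5.69 and 4.13 in the WT vehicle livers and 4.42, 3.88 and 3.79 in the WT CDDO-Im livers. It read 3.65, 3.32 and 3.56 in the CKO vehicle livers, all below the 3 WT vehicle livers, and 4.13, 3.67 and 3.74 in the CKO CDDO-Im livers.

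**Figure D1:**
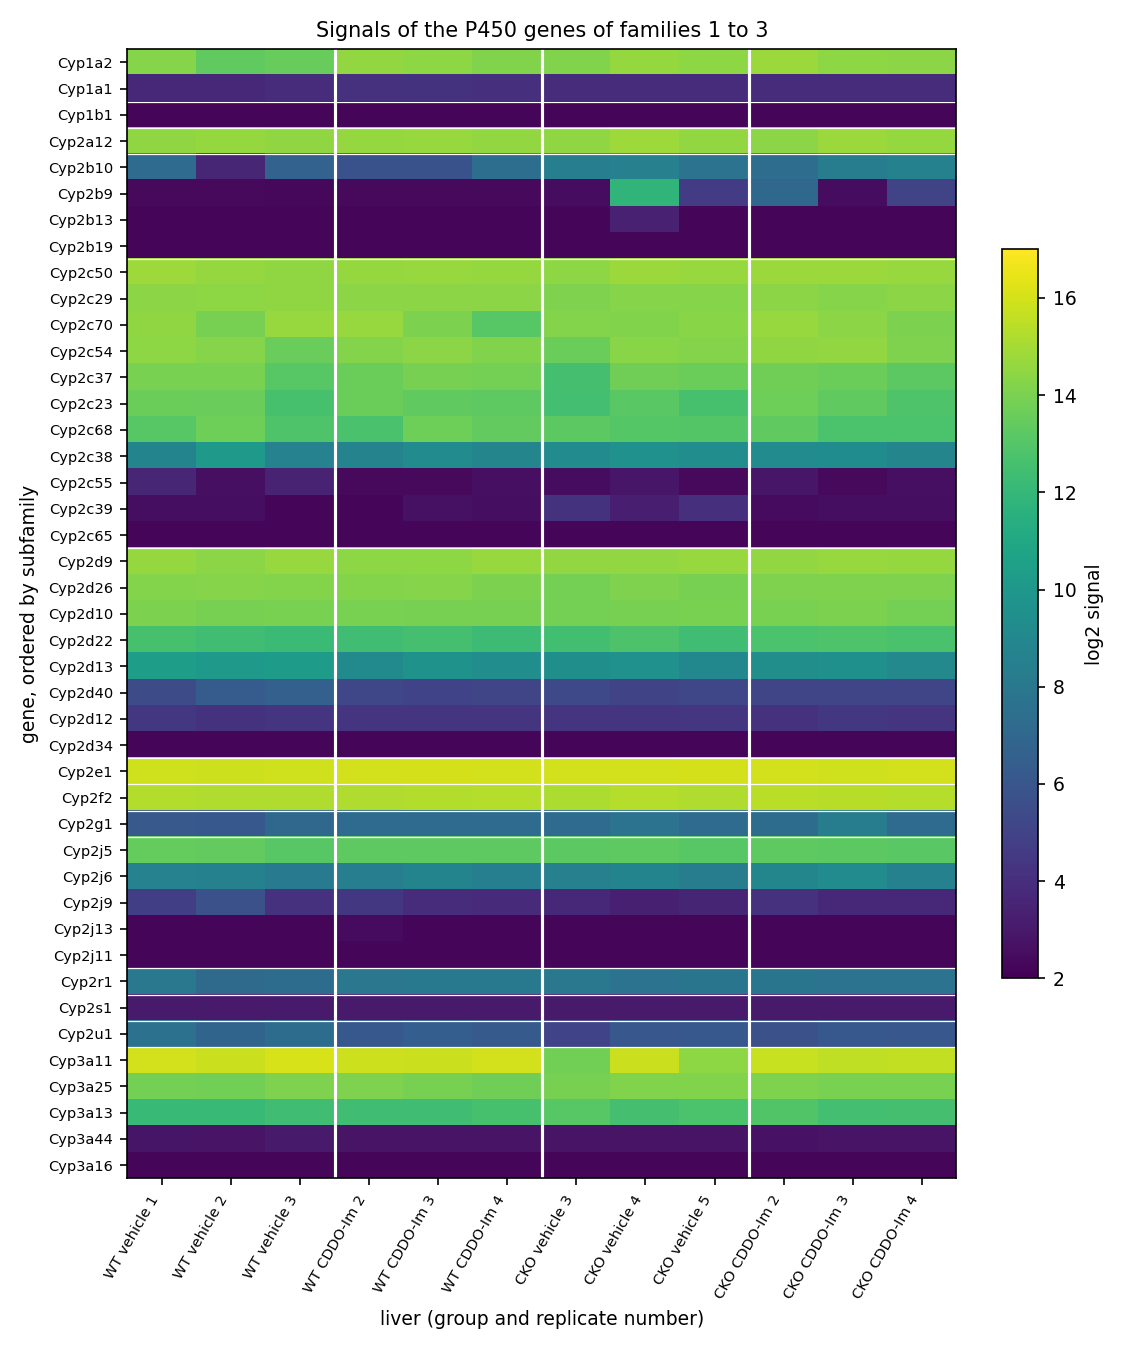
Log2 signal of the 43 P450 genes (rows, ordered by subfamily, white lines between subfamilies) in the 12 livers (columns, grouped by genotype and treatment); colour gives the signal from 2 to 17. Most rows keep 1 colour across the 4 groups, while Cyp2b9, Cyp2b10 and Cyp3a11 change colour between livers of the same group.

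When Keap1 was deleted, a larger share of the expressed P450s passed the test than of all genes, but the count depended on the fit. Of the 28 tested members, 4 passed the test in CKO against WT livers under vehicle (limma with Benjamini-Hochberg adjustment over 8338 genes, adjusted p under 0.05), beside 6.51% of all genes tested. One rose, Cyp3a13, while 3.25% of all genes tested rose, and 3 fell, Cyp2d13, Cyp2d40 and Cyp2u1, while 3.26% of all genes tested fell. The count was 0 in a fit of these 6 livers alone, 1 without CKO vehicle replicate 5, and 2 without CKO vehicle replicate 3, CKO CDDO-Im replicate 4, WT vehicle replicate 2 or any 1 of the 3 WT CDDO-Im livers. The median change of the members was -0.01, and that of all genes was also -0.01. The change was under 0.25 in either direction for 15 members, and for 18 the 95% interval of the change lay within 2-fold either way. The groups did not overlap for 11 members, beside 26.3% of all genes, and 10 had an unadjusted p under 0.05, beside 22.2%.

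After CDDO-Im in WT livers, 2 of the 28 members passed the test, beside 3.65% of all genes. Both fell, Cyp2d13 and Cyp2d40, while 1.76% of all genes tested fell. The count was 0 in a fit of these 6 livers alone, 0 without WT vehicle replicate 2 or 3 or without WT CDDO-Im replicate 2 or 4, and 1 without WT CDDO-Im replicate 3, CKO vehicle replicate 5 or any 1 of the 3 CKO CDDO-Im livers. The median change was 0.01 for the members and -0.02 for all genes, 19 members changed by under 0.25, and 20 had an interval within 2-fold. At an unadjusted p under 0.05 there were 6 members, beside 19.6% of genes. With no filter on low values, which adds genes to the adjustment, none of the 6 calls in these comparisons was kept. Both comparisons share the 3 WT vehicle livers.

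**Figure D2:**
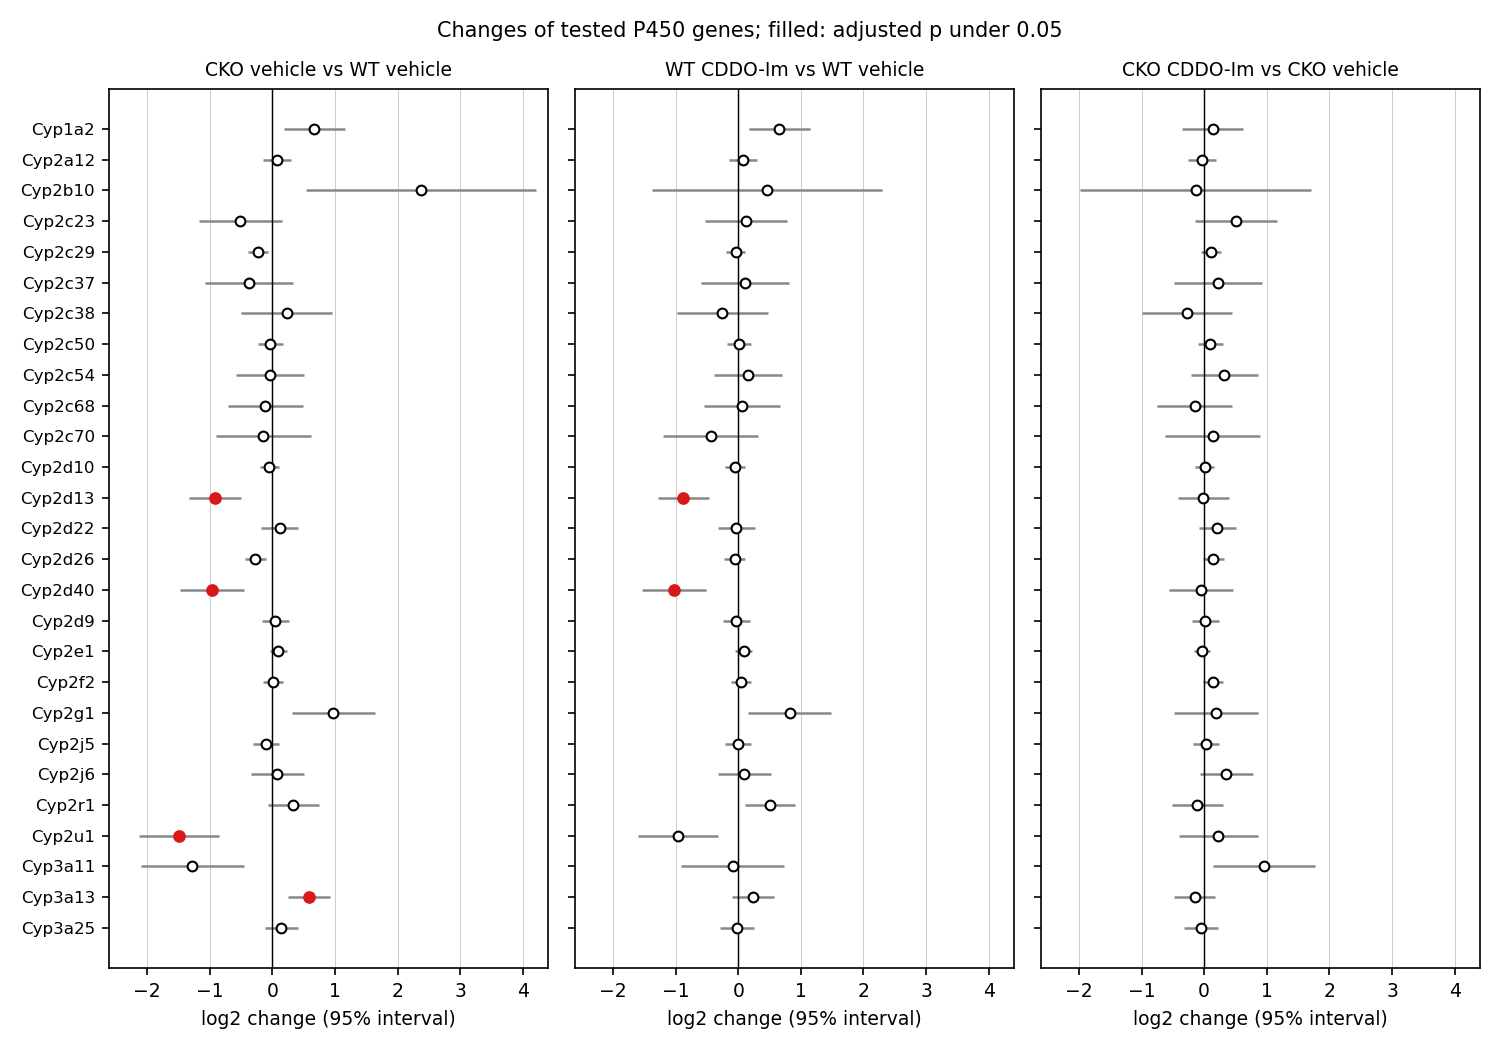
Log2 change (points) with its 95% interval (bars) for 27 of the 28 tested P450s in 3 comparisons; filled points have an adjusted p under 0.05. Cyp2b9 is left out because its interval is far wider. The filled points are Cyp2d13, Cyp2d40, Cyp2u1 and Cyp3a13 in the left panel and Cyp2d13 and Cyp2d40 in the middle one, with none in the right panel.

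In the Cyp2a subfamily the only member was Cyp2a12, a testosterone hydroxylase, which ranged from 14.40 to 14.77 over the 12 livers. It differed by 0.07 ± 0.10 between CKO and WT livers under vehicle (95% interval -0.15 to 0.30), and by 0.08 ± 0.10 after CDDO-Im in WT livers. Its close relatives Cyp2a4, a steroid hydroxylase, and Cyp2a5, the coumarin hydroxylase, are named together on 1 probe set, so they lie outside the 43 members and their signals cannot be separated. That shared probe set read 14.23, 14.56 and 14.04 in the WT vehicle livers and 15.48, 15.72 and 15.62 in the WT CDDO-Im livers. It read 15.86 in all 3 CKO vehicle livers and 15.87, 15.79 and 15.95 in the CKO CDDO-Im livers. The WT vehicle livers were below the other 9 livers without overlap.

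In a fit of all 14684 probe sets with signal, chosen after the data were seen, the shared Cyp2a5 and Cyp2a4 probe set rose 3.00-fold with Keap1 deletion (log2 1.59 ± 0.12, adjusted p = 8.29e-05). With CDDO-Im in WT livers it rose 2.52-fold (1.33 ± 0.12, adjusted p = 4.25e-04). In that fit 6.03% and 3.88% of probe sets were called in the 2 comparisons. CDDO-Im in CKO livers gave a change of 0.01 ± 0.12 (interval -0.26 to 0.28, adjusted p = 0.997). The difference between the drug effects in the 2 genotypes was -1.32 ± 0.17 (adjusted p = 0.0139), beside 0.327% of probe sets called for that difference. The adjusted p of that difference was 0.0562 without CKO CDDO-Im replicate 3 and 0.0565 without CKO vehicle replicate 3. CKO vehicle and WT CDDO-Im livers differed by 0.25 ± 0.12 (interval -0.02 to 0.52, adjusted p = 0.265), and their values did not overlap.

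The promoters of the 3 Cyp2a genes show how near Cyp2a4 and Cyp2a5 are to each other, and how far from Cyp2a12. They are the 250 bases before the start of each gene in RefSeq (GRCm38.p6), on the gene's strand, at chr7:26306942-26307191 (plus strand) for Cyp2a4, chr7:26835089-26835338 (plus strand) for Cyp2a5 and chr7:27028840-27029089 (plus strand) for Cyp2a12. Capitals mark the bases at which Cyp2a4 and Cyp2a5 differ, and in Cyp2a12 the TATAA of its TATA box.
Cyp2a4: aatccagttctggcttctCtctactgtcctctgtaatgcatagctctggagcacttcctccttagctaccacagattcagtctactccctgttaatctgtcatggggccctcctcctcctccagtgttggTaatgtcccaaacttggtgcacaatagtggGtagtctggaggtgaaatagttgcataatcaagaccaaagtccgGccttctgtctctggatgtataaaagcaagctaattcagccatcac
Cyp2a5: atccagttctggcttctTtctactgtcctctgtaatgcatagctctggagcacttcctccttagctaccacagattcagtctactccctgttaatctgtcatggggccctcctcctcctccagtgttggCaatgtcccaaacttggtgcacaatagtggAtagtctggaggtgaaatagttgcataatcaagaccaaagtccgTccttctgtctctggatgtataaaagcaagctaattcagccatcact
Cyp2a12: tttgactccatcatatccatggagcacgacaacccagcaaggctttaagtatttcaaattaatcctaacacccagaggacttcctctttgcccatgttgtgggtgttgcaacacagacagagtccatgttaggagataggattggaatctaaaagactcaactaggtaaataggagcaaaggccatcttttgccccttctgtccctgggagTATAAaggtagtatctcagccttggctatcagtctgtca
Of 249 aligned bases, 245 were identical between Cyp2a4 and Cyp2a5 (98.4%). Between Cyp2a5 and Cyp2a12, 139 of 215 aligned bases were identical (64.7%). Of the 43 members, 35 had an entry in the promoter table. The called members Cyp2d13 and Cyp2u1 had none, and Cyp2a4 and Cyp2a5 are not members, so the counts that follow leave these genes out. The letters TGACNNNGC, the core of the antioxidant response element bound by Nrf2, were searched on both strands of the same 250 bases and were in 0 of 35 members, beside 10.1% of 27025 promoters. On either strand, the Ah receptor core TNGCGTG was in 1 of 35, Cyp2c68, beside 4.16%, and TATAAA in 17 of 35, beside 13.0%. Cyp2d40 and Cyp2d9 are among the 17 with 0 matches to TATAAA on the gene's own strand. These windows are short, and a match or its absence is a description of the letters only.

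In the Cyp2d subfamily, 2 of 6 tested genes fell in both comparisons with WT vehicle livers. Cyp2d13 read 10.39, 10.12 and 10.31 in the WT vehicle livers and 9.16, 9.67 and 9.36 after CDDO-Im. In the CKO livers it read 9.48, 9.57 and 9.03 under vehicle and 9.43, 9.55 and 9.04 after CDDO-Im. The WT vehicle livers were above all others. Cyp2d13 was 1.89-fold lower in CKO than in WT livers under vehicle (log2 -0.91 ± 0.18, adjusted p = 0.0162) and 1.84-fold lower after CDDO-Im in WT livers (-0.88 ± 0.18, adjusted p = 0.0297). The first call was lost in 2 of the 12 fits that left out 1 liver (adjusted p up to 0.062, without WT vehicle replicate 1) and the second in 5 of 12 (up to 0.0987, without WT CDDO-Im replicate 4). A second Cyp2d13 probe set gave -1.39 ± 0.16 (adjusted p = 0.00107) and -1.05 ± 0.16 (adjusted p = 0.00714) in the fit of all probe sets, and both calls were kept in 12 of 12 fits without 1 liver. CKO vehicle and WT CDDO-Im livers differed by -0.03 ± 0.18 in Cyp2d13 (interval -0.44 to 0.37).

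Cyp2d40 read 5.47, 6.37 and 6.61 in the WT vehicle livers. It read 5.18, 5.04 and 5.14 in the WT CDDO-Im livers, 5.32, 5.08 and 5.18 in the CKO vehicle livers and 5.14 in all 3 CKO CDDO-Im livers. It lay close to the minimum of 5 in 9 livers, with 1 value, 5.14, repeated on 4 arrays. The change was -0.96 ± 0.23 with Keap1 deletion (adjusted p = 0.0342) and -1.03 ± 0.23 with CDDO-Im (adjusted p = 0.0377). Each of these calls was kept in only 2 of 12 fits that left out 1 liver, with adjusted p up to 0.105 and 0.114 without WT vehicle replicate 2. Cyp2d13 and Cyp2d40 are next to each other in the order of the members along chromosome 15.

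The other Cyp2d genes did not pass the test. Cyp2d9, a male-predominant steroid hydroxylase, ranged from 14.37 to 14.70 over the 12 livers and differed by 0.05 ± 0.10 between CKO and WT livers under vehicle (interval -0.17 to 0.27). Cyp2d10 ranged from 13.85 to 14.07, with a change of -0.05 ± 0.07. Cyp2d22 ranged from 12.24 to 12.84, with a change of 0.12 ± 0.13, and its second probe set gave 0.10 ± 0.14. Cyp2d26 read 14.19, 14.26 and 14.23 in the WT vehicle livers and 13.88, 14.09 and 13.91 in the CKO vehicle livers, which did not overlap (-0.27 ± 0.08, adjusted p = 0.0682).

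The promoters of Cyp2d40, which passed the test, and of Cyp2d9 on the same chromosome, which did not, are shown to set the 2 genes side by side. They are the 250 bases before the RefSeq start (GRCm38.p6), at chr15:82764123-82764372 (minus strand) for Cyp2d40 and chr15:82452127-82452376 (plus strand) for Cyp2d9. Capitals mark the TATAA found in both.
Cyp2d40: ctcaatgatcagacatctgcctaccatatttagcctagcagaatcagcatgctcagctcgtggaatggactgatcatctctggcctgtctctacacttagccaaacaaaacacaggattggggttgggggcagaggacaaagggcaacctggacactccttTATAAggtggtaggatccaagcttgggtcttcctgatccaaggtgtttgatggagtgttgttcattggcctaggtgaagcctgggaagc
Cyp2d9: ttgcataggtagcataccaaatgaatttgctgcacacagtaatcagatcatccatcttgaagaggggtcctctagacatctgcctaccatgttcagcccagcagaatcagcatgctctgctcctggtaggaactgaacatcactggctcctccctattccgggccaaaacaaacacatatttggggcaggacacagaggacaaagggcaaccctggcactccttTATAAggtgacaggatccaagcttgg
Over 187 aligned bases, 150 were identical (80.2%).

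Cyp2u1, a fatty acid hydroxylase, read 7.59, 6.82 and 7.30 in the WT vehicle livers and 5.04, 6.07 and 6.13 in the CKO vehicle livers. The WT CDDO-Im livers read 6.12, 6.47 and 6.23, and the CKO CDDO-Im livers 5.72, 6.12 and 6.09. All 3 WT vehicle livers were above the other 9. Cyp2u1 was 2.81-fold lower in CKO than in WT livers under vehicle (-1.49 ± 0.29, adjusted p = 0.0131). A second Cyp2u1 probe set did not exceed 3.21. The call was lost in 1 of 12 fits without 1 liver (adjusted p = 0.0534, without WT vehicle replicate 1). After CDDO-Im in WT livers the change was -0.96 ± 0.29 and did not pass (adjusted p = 0.0945). The difference between CKO vehicle and WT CDDO-Im livers was -0.53 ± 0.29 (interval -1.16 to 0.11, adjusted p = 0.298).

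Cyp3a13, a Cyp3a enzyme of liver and intestine, was the member that rose. It read 12.18, 12.11 and 12.39 in the WT vehicle livers and 13.11, 12.59 and 12.75 in the CKO vehicle livers, which did not overlap. It read 12.38, 12.41 and 12.61 in the WT CDDO-Im livers and 12.90, 12.52 and 12.56 in the CKO CDDO-Im livers. Cyp3a13 was 1.51-fold higher in CKO livers under vehicle (0.59 ± 0.15, adjusted p = 0.0445). The call was kept in 3 of 12 fits that left out 1 liver, with adjusted p up to 0.138 without CKO vehicle replicate 3. The change after CDDO-Im in WT livers was 0.24 ± 0.15 (adjusted p = 0.422).

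**Figure D3:**
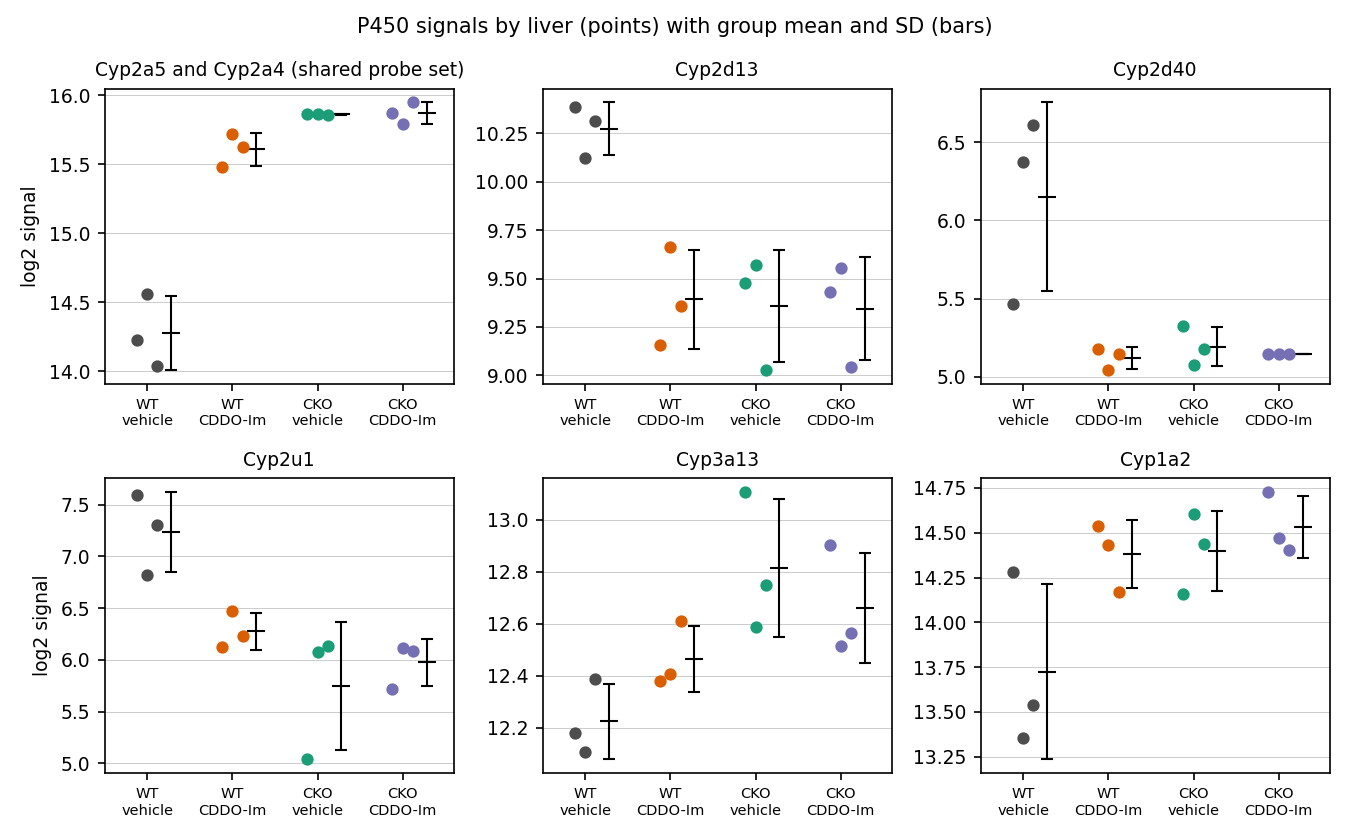
Log2 signal in each liver (points) with the group mean and SD (bars, n = 3) for 6 P450 probe sets in the 4 groups; each panel has its own axis, which does not start at 0. The WT vehicle livers sit below the other 9 for the shared Cyp2a5 and Cyp2a4 probe set and above them for Cyp2d13, Cyp2d40 and Cyp2u1; Cyp1a2 did not pass the test.

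Cyp3a11, the main PXR-inducible drug-metabolising P450 of mouse liver, read 15.96, 15.79 and 16.10 in the WT vehicle livers and 15.83, 15.80 and 15.96 in the WT CDDO-Im livers. The CKO vehicle livers read 13.82, 15.77 and 14.43, and the CKO CDDO-Im livers 15.73, 15.56 and 15.60. Replicates 3 and 5 of the CKO vehicle group were below all other livers, while replicate 4 was just under the lowest WT vehicle liver. The change between CKO and WT livers under vehicle was -1.28 ± 0.37 and did not pass (adjusted p = 0.0685). Without CKO vehicle replicate 4 it was -1.82 ± 0.17 (adjusted p = 6.43e-04), and without replicate 3 it was -0.85 (adjusted p = 0.186). The difference between CKO CDDO-Im and CKO vehicle livers was 0.95 ± 0.37 (interval 0.13 to 1.77, adjusted p = 0.497). Cyp3a25 ranged from 13.72 to 14.18, with a change of 0.15 ± 0.12 with Keap1 deletion. A probe set that names both Cyp3a41a and Cyp3a41b, and so lies outside the members, was above 5 in 2 livers, at 5.31 in WT vehicle replicate 3 and 5.06 in WT CDDO-Im replicate 4, and was not tested. Its mean was 4.93 in the WT vehicle and 4.89 in the WT CDDO-Im livers. It read 2.88, 4.71 and 3.39 in the CKO vehicle livers and had a mean of 4.52 in the CKO CDDO-Im livers.

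The Cyp2b genes had the widest spread between livers of a group among the members. Cyp2b10, the classic CAR target, read 7.23, 3.61 and 6.72 in the WT vehicle livers and 5.77, 5.77 and 7.41 in the WT CDDO-Im livers. It read 8.42, 8.55 and 7.71 in the CKO vehicle livers and 7.39, 8.33 and 8.56 in the CKO CDDO-Im livers. The CKO vehicle livers were above both WT groups without overlap, but the SD within groups was 1.15, larger than for 99.6% of genes. The change with Keap1 deletion under vehicle was 2.37 ± 0.83 (interval 0.53 to 4.22) and did not pass (adjusted p = 0.124). Over the 12 fits that left out 1 liver it ran from 1.25 to 3.06, with adjusted p from 0.0842 to 0.263. The other 2 Cyp2b10 probe sets gave 1.19 (adjusted p = 0.127) and 2.81 (adjusted p = 0.101).

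Cyp2b9, which is female-predominant in adult mouse liver, read 2.32 to 2.40 in all 6 WT livers. In the CKO vehicle livers it read 2.49, 11.83 and 4.66, and in the CKO CDDO-Im livers 7.09, 2.47 and 5.10. All 6 CKO livers were above every WT liver, 4 of them at 4.66 or more, and the other 2 at 2.49 and 2.47. The change under vehicle was 3.97 ± 1.94 (adjusted p = 0.263), with 1.22 without CKO vehicle replicate 4 and 5.89 without replicate 3. Cyp2b13 was at 3.37 in CKO vehicle replicate 4 and at the lowest value in the other 11 livers. Cyp2b19 was at the lowest value throughout.

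**Figure D4:**
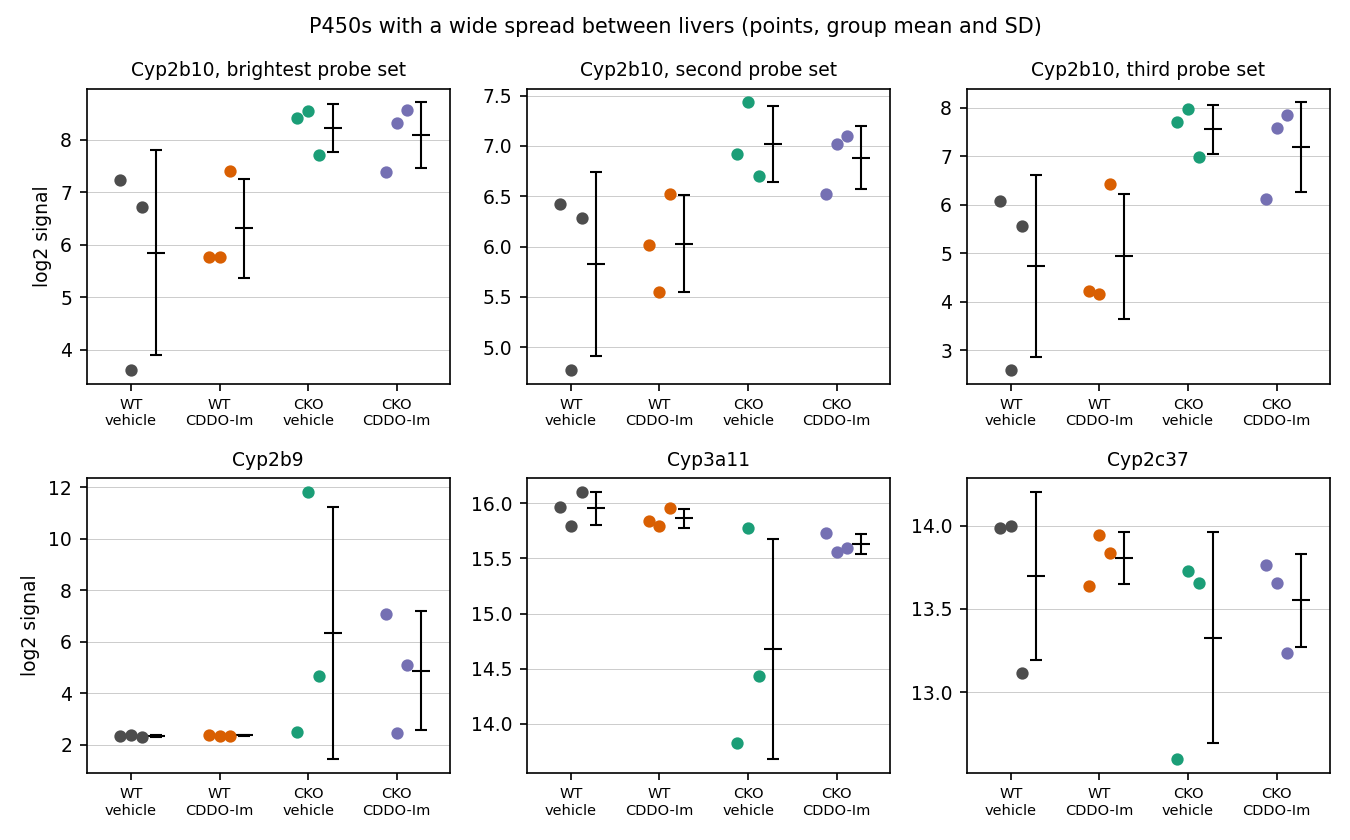
Log2 signal in each liver (points) with the group mean and SD (bars, n = 3) for P450s with a wide spread between livers of a group; each panel has its own axis. Cyp2b9 is near 2.4 in all 6 WT livers and between 2.47 and 11.83 in the CKO livers, and Cyp3a11 is low in replicates 3 and 5 of the CKO vehicle group.

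The levels of other gene lists in the same livers were as follows. The mean level of 8 male-predominant liver genes outside the P450s was 11.69 to 12.10 in the WT vehicle livers, and 10.66, 9.35 and 10.32 in CKO vehicle replicates 3, 4 and 5, lowest in the liver with the highest Cyp2b9. It was 11.30 to 11.97 in the WT CDDO-Im livers, and 10.44, 10.93 and 10.42 in CKO CDDO-Im replicates 2, 3 and 4, where Cyp2b9 read 7.09, 2.47 and 5.10. Of these 8 genes 4 fell with Keap1 deletion under vehicle (limma) and 0 rose, beside 3.26% of all genes tested that fell. Among the 4 were the steroid enzyme Hsd3b5 (-4.71 ± 0.89, adjusted p = 0.0121), the fatty acid elongase Elovl3 (-3.17 ± 0.58, adjusted p = 0.0104) and the transporter Slco1a1 (-2.16 ± 0.32, adjusted p = 0.00374). These calls were each kept in 12 of 12 fits without 1 liver. C6 also fell (-1.33 ± 0.34, limma adjusted p = 0.0427), but its call was kept in only 2 of 12. Gstp1, on the same list, changed by 0.01 ± 0.06. None of the 7 female-predominant genes outside the P450s with a probe set passed 5 on any array. Other female-predominant P450s went either way in CKO vehicle beside WT vehicle livers, at means below 5. Cyp2c39 was at 3.85 beside 2.45 and Cyp2b13 at 2.60 beside 2.22. Cyp3a44 was at 2.78 beside 2.90, Cyp3a16 at 2.22 in both, and the shared Cyp3a41a and Cyp3a41b probe set at 3.66 beside 4.93. Of the 2 members listed as male-predominant, Cyp2u1 fell (-1.49 ± 0.29) and Cyp2d9 did not (0.05 ± 0.10). P450s of other families were not on that list. The mean level of 19 acute phase genes, a list added with values of these data known, was 13.64 in CKO vehicle replicate 3, where Cyp3a11 was lowest, and 12.24 and 12.51 in replicates 4 and 5, beside 11.96 to 12.30 in the WT vehicle livers. It was 12.93 in CKO CDDO-Im replicate 2, where Cyp3a11 read 15.73, and 12.58, 12.09 and 12.51 in the WT CDDO-Im livers, where Cyp3a11 read 15.83, 15.80 and 15.96. In CKO vehicle replicates 3, 4 and 5 Cyp3a11 read 13.82, 15.77 and 14.43. Of the acute phase genes 18 were tested and 0 passed, beside 6.51% of all genes called with Keap1 deletion under vehicle. The part of either in the P450 values was not tested.

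In the Cyp1 family, Cyp1a2, which oxidises caffeine and arylamines, read 14.28, 13.36 and 13.54 in the WT vehicle livers and 14.16, 14.60 and 14.44 in the CKO vehicle livers. It read 14.54, 14.43 and 14.17 in the WT CDDO-Im livers and 14.73, 14.47 and 14.40 in the CKO CDDO-Im livers. Replicate 1 of the WT vehicle group lay within the range of the other groups, and replicates 2 and 3 below it. The change was 0.67 ± 0.22 with Keap1 deletion (adjusted p = 0.102) and 0.65 ± 0.22 with CDDO-Im in WT livers (adjusted p = 0.134). Without WT vehicle replicate 1, the highest of its group, these were 0.95 (adjusted p = 0.0146) and 0.93 (adjusted p = 0.0208). Without replicate 2 or 3, the lower livers of that group, both changes were instead smaller than with all livers. Cyp1a1, the most Ah receptor-dependent P450, stayed below 5 in every liver, and Cyp1b1 did not pass 2.23 on any of its 3 probe sets. With no filter on low values, Cyp1a1 differed by 0.34 ± 0.05 after CDDO-Im in WT livers (adjusted p = 0.0298), at signals below 5. It read 3.915 in every CKO liver, and these repeated values enter the shared estimate of spread behind that p.

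The Cyp2c subfamily, which makes fatty acid epoxides and hydroxylates bile acids and drugs, had 0 of 8 tested genes past the test in any of the comparisons. Cyp2c29 read 14.41, 14.44 and 14.50 in the WT vehicle livers and 14.10, 14.29 and 14.28 in the CKO vehicle livers. The groups did not overlap, at a change of -0.23 ± 0.07 (adjusted p = 0.0865). Cyp2c50 differed by -0.03 ± 0.09 between them (interval -0.23 to 0.16), and Cyp2c54 by -0.04 ± 0.24 (interval -0.58 to 0.50). Cyp2c70, which forms muricholic acids from other bile acids, ranged from 13.09 to 14.67, and its lowest value was in WT CDDO-Im replicate 4. Its change was -0.14 ± 0.34 with Keap1 deletion and -0.44 ± 0.34 with CDDO-Im in WT livers. Cyp2c23, Cyp2c37, Cyp2c38 and Cyp2c68 differed by -0.51 to 0.23 with Keap1 deletion without passing the test, and their intervals ran from -1.16 at the lowest to 0.95 at the highest. Cyp2c39, a retinoic acid hydroxylase, did not pass the filter. It read 4.18, 3.29 and 4.09 in the CKO vehicle livers and 2.54, 2.54 and 2.25 in the WT vehicle livers. In the CKO CDDO-Im livers it read 2.44, 2.54 and 2.54, and in the WT CDDO-Im livers 2.24, 2.65 and 2.54. With no filter its change with Keap1 deletion under vehicle was 1.41 ± 0.23 (adjusted p = 0.0272), at signals below 5.

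Cyp2e1, which oxidises ethanol and acetaminophen, had the smallest spread of the tested members. Its signals lay near the array maxima of 16.69 to 17.01, and the part of that in its small spread and narrow intervals was not tested. It read 15.90, 15.86 and 15.94 in the WT vehicle livers and 15.96, 15.99 and 16.03 in the CKO vehicle livers. Its change was 0.10 ± 0.06 with Keap1 deletion (interval -0.04 to 0.23) and 0.09 ± 0.06 with CDDO-Im in WT livers (interval -0.05 to 0.22). Cyp2f2, the naphthalene epoxidase, ranged from 15.16 to 15.44, with a change of 0.01 ± 0.07 with Keap1 deletion (interval -0.15 to 0.17).

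Cyp2g1, best known from the olfactory mucosa, read 6.16, 6.13 and 7.04 in the WT vehicle livers and 7.26, 7.73 and 7.26 in the CKO vehicle livers. The WT CDDO-Im livers were all at 7.26, a value repeated on 6 of the 12 arrays within 0.001. Its change was 0.98 ± 0.30 with Keap1 deletion (adjusted p = 0.0834) and 0.82 ± 0.30 with CDDO-Im (adjusted p = 0.164). Cyp2r1, a vitamin D hydroxylase, read 8.03, 7.19 and 7.32 in the WT vehicle livers and 7.96, 8.04 and 8.06 after CDDO-Im, a change of 0.51 ± 0.18 (adjusted p = 0.16).

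In the Cyp2j subfamily of fatty acid epoxygenases, the brightest Cyp2j5 probe set ranged from 13.10 to 13.43, with a change of -0.10 ± 0.09 with Keap1 deletion. A second Cyp2j5 probe set read 11.04, 10.81 and 10.57 in the WT vehicle livers and 9.85, 10.23 and 9.67 in the CKO vehicle livers. It gave -0.89 ± 0.17 (adjusted p = 0.0150), so the 2 probe sets of this gene disagree. That call was lost without CKO vehicle replicate 3 (adjusted p = 0.0626) or WT vehicle replicate 1. Cyp2j6 ranged from 8.15 to 9.21, with a change of 0.08 ± 0.19, and its second, dimmer probe set gave 0.60 ± 0.21 (adjusted p = 0.137).

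CDDO-Im in CKO livers moved 0 of the 28 members past the test, beside 0.0% of all genes, since no gene passed in that comparison. At an unadjusted p under 0.05 it was 1 member, Cyp3a11, beside 9.47% of genes. For 23 members the 95% interval of this change lay within 2-fold either way. Between CKO and WT livers under CDDO-Im it was also 0 of 28, beside 1.54% of genes, with 1 member at an unadjusted p under 0.05 beside 16.8%. Set directly against each other, CKO vehicle and WT CDDO-Im livers differed in 0 of 28 members, beside 4.29% of genes, with 5 members at an unadjusted p under 0.05 beside 23.0%. Without CKO vehicle replicate 4 it was 1, Cyp3a11. The interval was within 2-fold for 20 members in this comparison. The difference between the drug effects in the 2 genotypes passed for 0 of 28, beside 0.276% of genes, with 4 at an unadjusted p under 0.05 beside 10.3%. It passed for 1 member without CKO vehicle replicate 4 (Cyp3a11) and for 1 without WT vehicle replicate 1 (Cyp2d40).

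Genes that supply and control these enzymes were read from lists. Of 15 tested genes for redox partners and heme supply, 2 rose and 1 fell with Keap1 deletion under vehicle, and 2 rose with CDDO-Im in WT livers. Over all genes tested, 6.51% and 3.65% were called in these comparisons. Blvrb, a biliverdin reductase, rose in both (1.60 ± 0.11, adjusted p = 4.55e-05, and 0.996 ± 0.11, adjusted p = 0.00160). Hmox1, which breaks heme down, rose with CDDO-Im (1.47 ± 0.29, adjusted p = 0.0220) and was at 1.05 ± 0.29 with Keap1 deletion (adjusted p = 0.0557). Pgrmc1, a heme-binding partner of P450s, rose by 0.26 ± 0.06 with Keap1 deletion (adjusted p = 0.0339), and Pgrmc2, its relative, fell by 0.60 (adjusted p = 0.0307). Both Blvrb calls were kept in 12 of 12 fits without 1 liver, the Hmox1 and Pgrmc2 calls in 8 and the Pgrmc1 call in 5. The median change of this list was -0.13 with Keap1 deletion.

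Of 16 tested transcriptional regulators of P450 genes, 1 rose and 2 fell with Keap1 deletion under vehicle, beside 6.51% of all genes called. Nr1i3, which encodes CAR, rose by 0.50 ± 0.12 (adjusted p = 0.0333). Ppara, the fatty acid receptor, fell by 1.02 (adjusted p = 0.0434), and Nfe2l2, which encodes Nrf2, fell by 0.76 (adjusted p = 0.0102). With CDDO-Im in WT livers 1 rose, Cebpb (1.04 ± 0.23, adjusted p = 0.0370), beside 3.65% of all genes called. The Nfe2l2 call was kept in 12 of 12 fits without 1 liver, the Nr1i3 call in 6, the Cebpb call in 4 and the Ppara call in 3. The median changes were -0.11 and 0.03.

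Of 9 tested CAR and PXR targets outside the P450s, 4 rose with Keap1 deletion and 2 with CDDO-Im, with 0 falls, beside 6.51% and 3.65% of all genes called. Of the 4 tested members on the list of CAR or PXR inducible P450s 0 passed in either, among them Cyp2b10 and Cyp3a11 with the wide intervals given above. The difference between the lists was not tested. Abcc4, an efflux transporter that Nrf2 also drives, rose by 5.76 ± 0.28 (adjusted p = 3.92e-06) and 1.67 ± 0.28 (adjusted p = 0.0110). Abcc3, another transporter, rose by 0.75 ± 0.13 (adjusted p = 0.00821) and 0.55 ± 0.13 (adjusted p = 0.0418). The second Abcc3 call was kept in 4 of 12 fits without 1 liver, and the other 3 of these transporter calls in 12 of 12. Abcc2 (0.69 ± 0.12, limma adjusted p = 0.0100) and Gadd45b (0.51 ± 0.09, adjusted p = 0.0101) also rose with Keap1 deletion. Alas1 (0.01), Aldh1a1 (0.11), Aldh1a7 (0.45), Ces2a (-0.38) and Slco1a4 (0.83) did not pass in that comparison. The part of Nrf2 in the rises on this list was not tested.

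Of 17 tested genes of the other P450 families, 1 rose and 1 fell with Keap1 deletion under vehicle, and 0 passed with CDDO-Im in WT livers. Over all genes tested, 6.51% and 3.65% were called in these comparisons. Cyp39a1, an oxysterol hydroxylase, rose by 1.85 ± 0.32 (adjusted p = 0.00873), and Cyp4v3, a fatty acid hydroxylase, fell by 0.65 (adjusted p = 0.0419). The first call was kept in 12 of 12 fits without 1 liver and the second in 3.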

How the data were processed

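The deposited table holds log2 signals of 45101 probe sets on 12 Affymetrix arrays, made by the authors; the submitters' processing notes name GCRMA 2.12.1 and R 2.7.0. A genome build was not given in the sources used here. Array number, not read depth, limits the precision. Probe sets naming 1 gene in GEO's platform annotation (34945; 932 name several, 9160 none and 64 are controls) were kept, with the brightest per gene. Genes above 5 on at least 3 arrays (8338) entered a linear model of the 4 group means in limma 3.58.1 (R 4.3.3), with Benjamini-Hochberg adjustment. The interaction is the drug effect in CKO minus that in WT livers. Linear folds were left out where a group mean was below 5. All 43 symbols matched the RefSeq gene table. The rule for named genes took every called member with its values on all arrays, the largest change in a subfamily with none called, untested members with their range, and at most 4 called genes of each other list; further members were named after their values were seen. The members and gene lists were chosen with earlier results of these data known. Alternatives changed the normalization, filter, probe set choice, variance model, samples fitted and replicate block, and left out each liver. The script was tested on simulated data. Marker lists for other liver cells gave, with Keap1 deletion under vehicle, 1 of 6 macrophage markers, 1 endothelial marker and 1 of 7 pericentral markers that rose, 1 of 5 stellate markers that fell, and 0 of 7 periportal markers. In that comparison 6.51% of all genes tested were called. Of 2 tested Ah receptor targets outside the P450s, 1 rose, Nqo1, which is also an Nrf2 target. The other, Tiparp, did not pass in that comparison (-0.50 ± 0.15, limma adjusted p = 0.0691) or with CDDO-Im in WT livers (-0.35 ± 0.15, adjusted p = 0.214).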

Additional observations from a re-analysis of the deposited data

Results flagged for a closer look

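The shared Cyp2a5 and Cyp2a4 probe set responded differently to CDDO-Im in the 2 genotypes. The drug effect in CKO livers minus that in WT livers was -1.32 ± 0.17 on the log2 scale (limma over all probe sets, adjusted p = 0.0139), with all 3 WT CDDO-Im livers above all 3 WT vehicle livers and an overlap between the CKO groups. Leaving out 1 liver gave -1.47 to -1.20. The CKO vehicle livers already stood at 15.86, near the array maxima of 16.69 to 17.01, and the part of that in the difference was not tested. Groups of 3 livers were not tested for single outlying livers.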

How the results depend on the processing

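The counts of members past the test depended on the fit. With Keap1 deletion under vehicle the 4 became 0 in a fit of the compared groups only, 2 with the filter at 7, and 1 with no filter (Cyp2c39). They were 4 to 6 under 6 other alternatives, and leaving out 1 liver gave 1 to 5. With CDDO-Im in WT livers the 2 became 0, 1 and 1 (Cyp1a1) under the same settings, and leaving out 1 liver gave 0 to 3. The direct comparison of CKO vehicle with WT CDDO-Im livers went from 0 to 1 with no filter (Cyp2c39), with 0 to 1 when leaving out 1 liver. The interaction gave 0 to 1 when leaving out 1 liver, and the other 2 comparisons gave 0 throughout. The 6 member calls, and the calls of the shared Cyp2a5 and Cyp2a4 probe set, kept their direction under every alternative in which they were tested; the uncalled change of that probe set with CDDO-Im in CKO livers lay around 0 (-0.03 to 0.05). Uncalled members were followed one by one only when leaving out 1 liver.

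Livers with the same replicate number deviated together little more than others did (median correlation 0.06 over 12 pairs, 0.01 over 42 others). With so few pairs this cannot settle whether the numbers pair them. A replicate block gave 1 call with Keap1 deletion (Cyp2d40) and 2 with CDDO-Im (Cyp2d40 and Cyp2r1), as the calls over all genes went from 543 to 55 and from 304 to 114. Centring each array on its median changed the split of all calls with CDDO-Im in WT livers from 157 that rose and 147 that fell to 228 and 121. The interaction of the shared Cyp2a5 and Cyp2a4 probe set had an adjusted p of 0.0776 with no filter and 0.270 with the replicate block. Low signal limits the 15 untested members.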

Other observations

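Livers of a group differed in how often they were its highest or lowest across the 28 tested P450s. Among the 3 CKO vehicle livers, replicate 4 had the highest signal for 19 of 28 members and replicate 3 the lowest for 17. Among the CKO CDDO-Im livers, replicate 4 had the lowest signal for 16 and replicate 2 the highest for 14. Among the WT livers, replicate 2 had the lowest signal for 14 under vehicle and for 14 under CDDO-Im. Such counts are not given for all genes tested, so whether they are particular to the P450s cannot be told. Members differed widely in spread within groups: the residual SD was 0.04 for Cyp2e1, 0.06 for Cyp2d10 and 0.07 for Cyp2f2 and Cyp2c29, and 2.704 for Cyp2b9 and 1.15 for Cyp2b10. The median over all genes tested was 0.16.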
